A study of Mus musculus with 10 samples.

Results

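A set of 10 genes of the Notch pathway was taken by name from a table of 23358 gene rows: the receptors Notch1, Notch2, Notch3 and Notch4, the ligands Jag1 and Jag2, and the target genes Hes1, Hey1, Hey2 and Heyl. All 10 were present. They were measured in MC3T3 cells, a mouse calvarial pre-osteoblast line grown in osteogenic medium. The cultures were given either vehicle or GSK126 at 5 µM, which inhibits the H3K27 methyltransferase EZH2. The inhibitor was present from day 0, was renewed on day 3 and was withdrawn on day 6. RNA was sequenced on day 3, day 6 and day 10 from 1 vehicle and 1 GSK126 culture each, which gave 6 libraries. H3K27me3, the histone mark that EZH2 writes, was immunoprecipitated 24 hours after the first dose, with 1 ChIP and 1 input library per treatment. All samples came from this single cell line, and no group had a replicate.

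Notch receptors are bound by Jagged and Delta-like ligands on neighbouring cells. Binding exposes the receptor to ADAM proteases and gamma-secretase, and the released intracellular domain joins RBPJ and Mastermind proteins in the nucleus to switch on genes of the HES and HEY families. HES and HEY proteins are basic helix-loop-helix repressors. In mouse bone, Notch signalling is known for holding mesenchymal progenitors back from maturing into osteoblasts.

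Total gene counts were 97291878 to 111537936 per library. Summed osteoblast markers lay between 55739 and 77188 CPM (gene counts scaled by sequencing depth, here with TMM library sizes), and 8 of 8 reached 1 CPM. Col1a1 and Col1a2 gave 29816 and 29758 of the 60385 CPM in the day 3 vehicle library, so the sum says little about the other markers. Endothelial markers summed to 0.728 to 4.94 CPM and blood markers to 1.63 to 2.32 CPM, with Kdr and Adgre1 at 0 in all libraries. Of 8 markers of mural and smooth muscle cells, 5 reached 1 CPM. The defining mural gene Rgs5 had 0 to 4 counts, while the list summed to 3019, 2133 and 1302 CPM in vehicle and 2233, 1289 and 1165 CPM in GSK126 on days 3, 6 and 10.

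Of the receptors, Notch2 was the most abundant, and of the Jagged ligands, Jag1. On the authors' length-normalised scale (RPKM), Notch2 had a mean level of 15.4 over the 6 libraries, with a range of 11.7 to 19.9, and was the highest of the 10 genes in every library. Jag1 followed with a mean level of 4.88 RPKM (1.90 to 9.25), Notch1 with 4.49 (1.71 to 6.78), Notch3 with 2.75 (1.96 to 3.40) and Hes1 with 2.24 (1.11 to 3.61). The ranges of these 4 genes overlapped, and their order changed between libraries: Jag1 took ranks 2 to 4, Notch1 and Notch3 ranks 2 to 5, and Hes1 ranks 3 to 5. The other 5 genes were near the limit of detection. Jag2 had a mean level of 0.0840 RPKM, Hey1 of 0.0798, Notch4 of 0.0724 and Heyl of 0.0516, and these 4 did not separate beyond their spread. Hey2 was last in every library, with a mean level of 0.00303 RPKM and at most 4 counts.

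**Figure D1:**
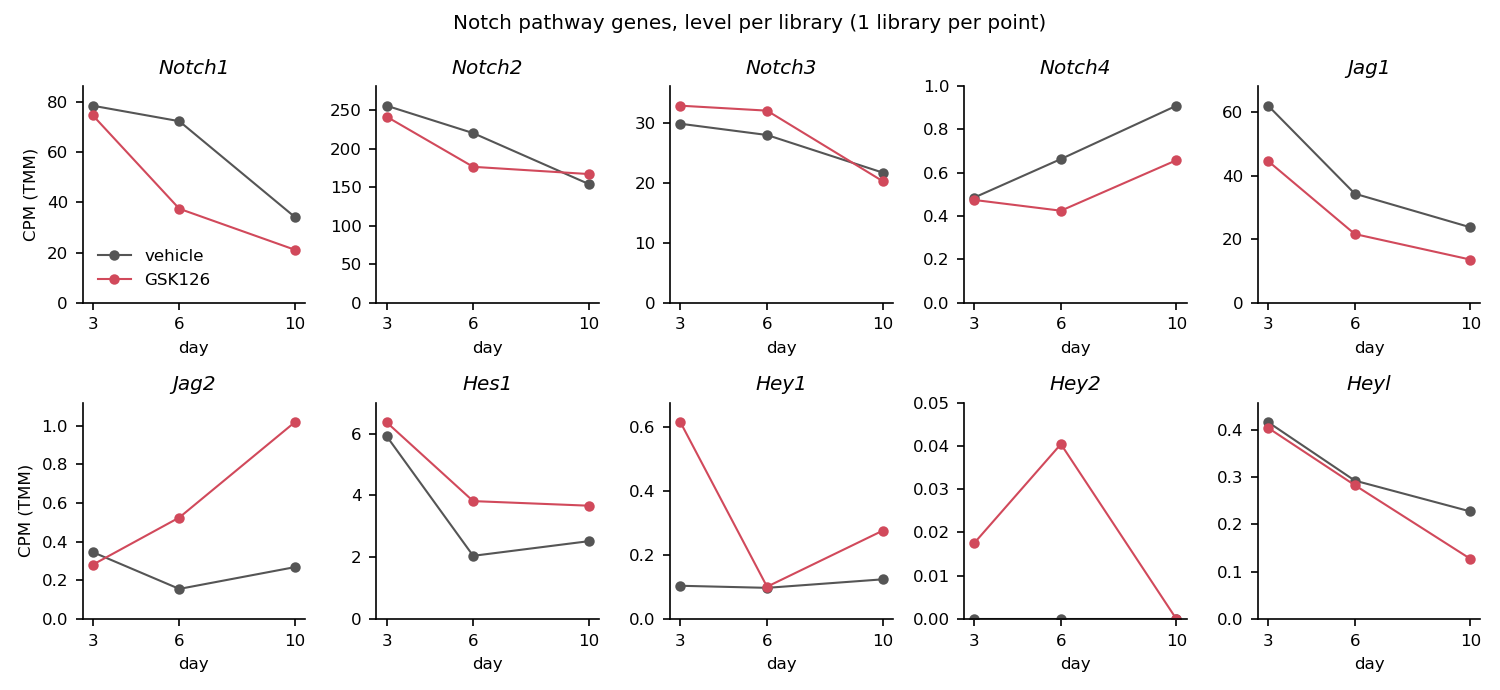
Level of each of the 10 genes in CPM (y axis, starting at 0, own scale per gene) on days 3, 6 and 10 (x axis), with vehicle in grey and GSK126 in red. Each point is 1 library. Jag1 is lower with GSK126 on all 3 days, from 44.6 against 62.1 CPM on day 3 to 13.6 against 23.8 CPM on day 10.

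The genes lie on several chromosomes of the mm10 build, with Notch1 at chr2:26457902-26503822, Notch2 at chr3:98013538-98150367, Notch3 at chr17:32120893-32166852, Notch4 at chr17:34564295-34588543, Jag1 at chr2:137081451-137116520 and Jag2 at chr12:112908590-112929495. The target genes Hes1, Hey1, Hey2 and Heyl lie at chr16:30065357-30067796, chr3:8663359-8667038, chr10:30832359-30842783 and chr4:123233556-123249870. The RNA libraries did not mark strand. Apart from the microRNA gene Mir3110 inside Jag1, no annotated gene overlapped a member.

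Promoter sequence, taken as the 250 bases before the annotated gene start (RefSeq, GRCm38.p6, the same build as mm10), was matched for 7 of the 10 genes. The target genes Hes1, Hey1 and Heyl had no matched promoter and were not searched. Each of the 7 was searched on both strands for TGGGAA, the core letters bound by RBPJ, and for CACGCG, the class C site bound by HES and HEY repressors. The motifs share no overlapping match here. Jag1 is shown because it was the single member that passed the edgeR test for treatment, and Hey2 and Notch4 because H3K27me3 islands reached their starts. Capitals mark the motif matches, and each sequence runs 5′ to 3′ on the gene's strand. The Jag1 stretch is chr2:137116521-137116770 on the minus strand, that of Hey2 is chr10:30842784-30843033 on the minus strand, and that of Notch4 is chr17:34564045-34564294 on the plus strand.
Jag1: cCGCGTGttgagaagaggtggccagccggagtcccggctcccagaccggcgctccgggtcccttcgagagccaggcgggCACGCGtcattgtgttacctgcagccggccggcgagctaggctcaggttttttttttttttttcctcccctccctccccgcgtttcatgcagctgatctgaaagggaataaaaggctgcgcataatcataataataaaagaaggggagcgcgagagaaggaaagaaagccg
Hey2: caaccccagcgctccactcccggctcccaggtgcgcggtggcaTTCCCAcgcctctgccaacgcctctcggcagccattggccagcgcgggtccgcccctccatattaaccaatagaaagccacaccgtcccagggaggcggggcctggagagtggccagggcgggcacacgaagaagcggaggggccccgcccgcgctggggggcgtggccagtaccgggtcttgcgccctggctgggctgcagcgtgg
Notch4: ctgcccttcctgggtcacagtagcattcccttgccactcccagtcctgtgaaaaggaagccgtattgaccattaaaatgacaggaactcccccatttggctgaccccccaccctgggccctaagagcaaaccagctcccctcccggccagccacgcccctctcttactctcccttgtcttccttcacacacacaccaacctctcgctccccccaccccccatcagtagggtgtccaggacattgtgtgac
The RBPJ core was found in 1 of the 7 promoters, that of Hey2, on the reverse strand with its first base at position -207 from the start. It occurs in 21.6% of 32851 mouse promoter stretches of this length. The class C site was found in Jag1, at -249 and -171, and in Notch2, at -42, against 7.62% of all promoter stretches. A match describes these letters only.

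The first comparison asks how the EZH2 inhibitor shifted the pathway's RNA. Jag1, the more abundant Jagged ligand, was lower with GSK126 on each of the 3 days, and it was the single member that passed the edgeR test. Notch1 stood lower on days 6 and 10, Hes1 stood higher on the same days, and Notch2 and Notch3 stayed close to vehicle, but none of these 4 passed. Because these are bulk cultures, fewer cells of a type and less RNA per cell cannot be told apart.

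Jag1 had 62.1, 34.4 and 23.8 CPM in vehicle and 44.6, 21.6 and 13.6 CPM in GSK126 on days 3, 6 and 10. The GSK126 library was below its vehicle partner on every day, although the day 3 GSK126 level was above the later vehicle levels. The ratio of GSK126 to vehicle was 0.719 on day 3 (95% counting interval 0.683 to 0.756), 0.630 on day 6 (0.583 to 0.679) and 0.572 on day 10 (0.518 to 0.630). Fitted over the 3 pairs with day as a term, Jag1 fell by 0.65 on the log2 scale (SE 0.092, 0.638-fold, edgeR quasi-likelihood adjusted p = 0.0477). The spread in this test is how the GSK126 difference varied between the 3 days, and not the spread of replicate cultures. The fit also pools days 3 and 6 with day 10, which came after withdrawal. Of the 9 members that passed the low-count filter, 1 was lower and 0 were higher. Among all 14344 genes tested 1.28% were called, 1.01% as higher and 0.272% as lower. The Jag1 call lay close to the threshold of 0.05 and was lost without day 3 (adjusted p = 0.0707), without day 6 (0.192) and without day 10 (0.165), while its log2 difference stayed between -0.73 and -0.57. It was also lost with counts divided by 2, the fragment scale used for the intervals (edgeR adjusted p = 0.0510). The summed level of the mural and smooth muscle list, most of it Acta2, was also lower in GSK126 on each day. Its genes did not move as 1 group: of 7 tested, Tagln passed as lower (0.689-fold, edgeR adjusted p = 0.0428), Cspg4 passed as higher (2.96-fold, adjusted p = 0.0369) and 5 did not pass, with 3 positive and 4 negative differences. The osteoblast list had 8 positive differences of 8 tested, with a median log2 difference of 0.76, and 2 passed as higher. The part of either list in the Jag1 result was not tested.

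Notch1, the receptor with the second highest mean level, had 78.7, 72.5 and 34.2 CPM in vehicle and 74.9, 37.5 and 21.1 CPM in GSK126. The day 3 libraries were nearly level, and the 2 treatments separated on day 6. The ratio was 0.952 on day 3 (0.913 to 0.993), 0.517 on day 6 (0.489 to 0.547) and 0.617 on day 10 (0.570 to 0.668). The fitted log2 difference was -0.57 (SE 0.17), which missed the threshold in edgeR (adjusted p = 0.161) and passed it in DESeq2 (adjusted p = 0.0311).

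Notch2 had 256, 220 and 154 CPM in vehicle and 242, 177 and 167 CPM in GSK126. It was below vehicle on days 3 and 6 and above it on day 10, the first time point after withdrawal. The ratio was 0.945 on day 3 (0.923 to 0.967), 0.801 on day 6 (0.779 to 0.824) and 1.08 on day 10 (1.05 to 1.12). The fitted log2 difference of -0.10 (SE 0.10, edgeR adjusted p = 0.678) averages these opposite values. Notch3 had 29.8, 27.9 and 21.7 CPM in vehicle and 32.8, 32.0 and 20.3 CPM in GSK126. Its groups overlapped, and its fitted log2 difference was 0.08 (SE 0.091, edgeR adjusted p = 0.702). Notch4, a receptor best known from endothelium, stayed below 1 CPM in every library, and its fit gave -0.38 on the log2 scale (SE 0.27) with an edgeR adjusted p of 0.509.

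**Figure D2:**
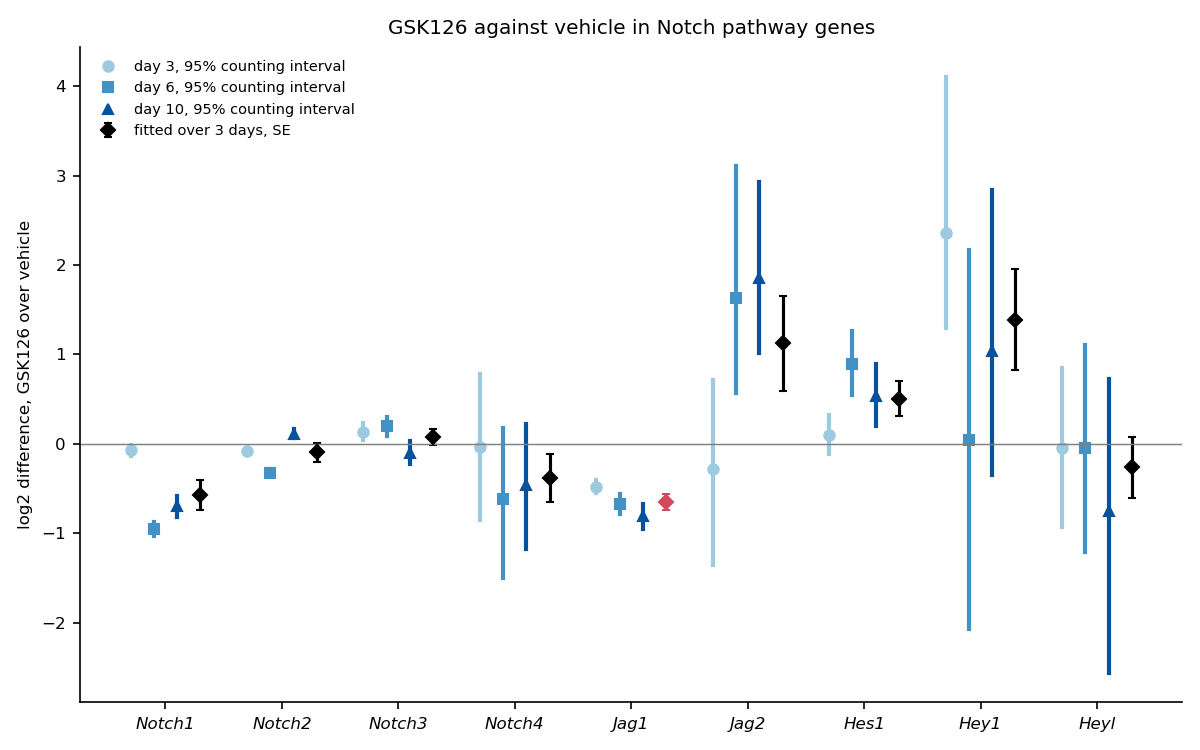
Log2 difference of GSK126 over vehicle (y axis) for the 9 members that passed the low-count filter (x axis). Blue points are single pairs of libraries per day with 95% counting intervals, and diamonds are the fit over 3 days with its SE, red where the adjusted p was below 0.05. Jag1 is the 1 red diamond, at -0.65, and the intervals of Jag2, Hey1, Heyl and Notch4 are wide.

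Receptor composition moved with these values. The summed level of the 4 receptors was 29.8, 25.3 and 16.9 RPKM in vehicle and 28.9, 19.5 and 15.9 RPKM in GSK126. Notch2 supplied 66.8%, 65.1% and 69.4% of that sum in vehicle and 65.6%, 67.6% and 76.6% in GSK126. Notch1 supplied 22.7%, 23.7% and 17.0% in vehicle and 22.5%, 15.9% and 10.7% in GSK126. On day 3 the 2 treatments had nearly the same receptor make-up, and on days 6 and 10 Notch1 was a smaller part of it in GSK126. Notch3 supplied 10.3% to 16.2% and Notch4 0.201% to 0.651%. With 1 library per bar these shares have no test.

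**Figure D3:**
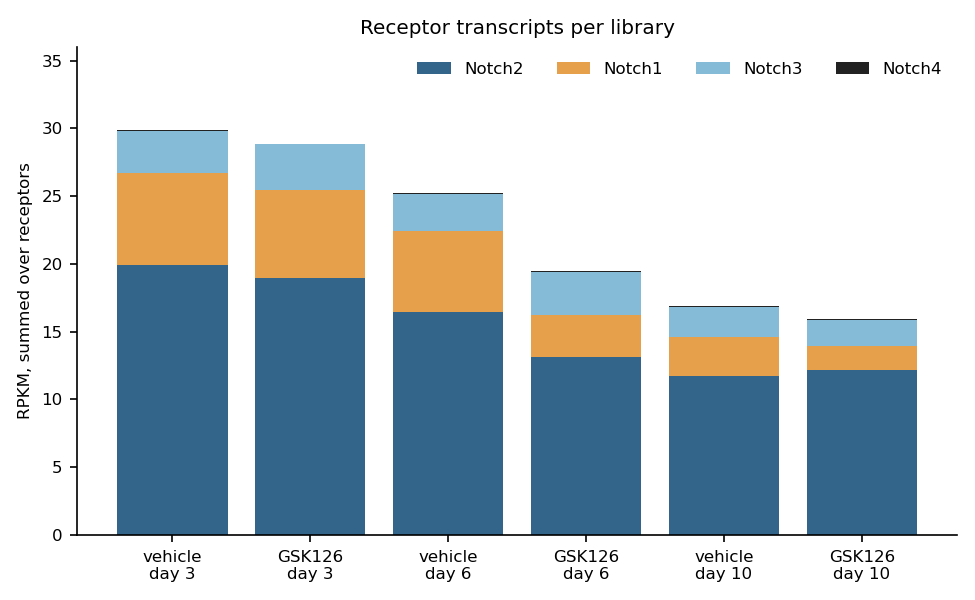
Summed RPKM of the 4 Notch receptors (y axis, starting at 0) in each of the 6 libraries (x axis), stacked by receptor. The bars shorten from 29.8 to 16.9 in vehicle and from 28.9 to 15.9 in GSK126, and Notch2 is the largest segment of each.

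Among the target genes, Hes1 was the only one above 1 CPM. It had 5.92, 2.05 and 2.52 CPM in vehicle and 6.37, 3.82 and 3.67 CPM in GSK126. The GSK126 library was above its vehicle partner on each day, by a ratio of 1.08 on day 3 (0.925 to 1.25), 1.86 on day 6 (1.46 to 2.39) and 1.45 on day 10 (1.15 to 1.85). The fitted log2 difference of 0.51 (SE 0.19) missed the threshold in edgeR (adjusted p = 0.236). On days 6 and 10 the Hes1 level thus stood above vehicle in cultures whose Jag1 and Notch1 levels stood below it.

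Hey1 had 12, 10 and 12 counts in vehicle and 70, 10 and 26 in GSK126. The day 3 GSK126 library stood apart, with a ratio of 5.14 (2.46 to 17.2). The ratio was taken on log values with a prior count of 2, and the interval on fragments without it. The fit gave 1.39 on the log2 scale (SE 0.56) with an edgeR adjusted p of 0.262. Heyl had 48, 30 and 22 counts in vehicle and 46, 28 and 12 in GSK126, and its intervals included equality on all 3 days. Hey2 had 0 counts in each vehicle library and 2, 4 and 0 in GSK126, too few for a fold or a test.

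Jag2, the second Jagged ligand, was a rare transcript with 40, 16 and 26 counts in vehicle and 32, 52 and 96 in GSK126. The counts were close on day 3 (ratio 0.821, 0.393 to 1.65) and apart later, by a ratio of 3.11 on day 6 (1.48 to 8.61) and 3.60 on day 10 (2.02 to 7.63). The fitted log2 difference was 1.12 (SE 0.53, edgeR adjusted p = 0.320). On day 10 Jag2 was the 1 member with at least 1 CPM in a library and a difference of 2-fold or more, where 5.51% of 11933 genes reached that fold, 3.07% as higher and 2.44% as lower. No member did so on day 3, where 1.67% of genes did (1.51% higher, 0.162% lower), or on day 6, where 6.21% did (4.15% higher, 2.06% lower). Jag2 met the 1 CPM minimum on day 10 only through the GSK126 library, at 1.02 CPM against 0.269 CPM in vehicle. Its entry into this count thus depended on the higher level itself, and it did not reach the alternative minimum of 5 CPM. Genes of the neuronal and chondrocyte lists moved beside these values, but not all in the same direction. The neuronal list summed to 115 CPM in GSK126 against 29.3 CPM in vehicle on day 10, of which Tubb3 made up 110 and 23.2 CPM, while Map2 was at 0.785 and Syp at 0.598 of vehicle. The chondrocyte list summed to 599 against 246 CPM on day 3, of which Col2a1 made up 561 and 207 CPM, while Sox9 was at 0.905 of vehicle and Acan had 0 counts in all libraries. The part of either list in the Jag2 or Hey1 values was not tested.

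Of the 9 members tested, 6 had the same sign on all 3 days, and 4 (44.4%), Notch1, Notch4, Jag1 and Heyl, were lower than vehicle on all 3. Of all 14344 genes, 6429 kept their sign on all 3 days, and 22.7% were lower on all 3. The intervals of Notch4 and Heyl included equality on all 3 days, so counting error can set their signs. Hey1, among the 6, had 10 counts in each library on day 6. The shares were not tested against each other.

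The rest of the pathway was described with 64 other genes in 8 lists, of which 56 passed the filter. With GSK126, 1 of the 56 was higher, 1 was lower and 54 did not pass, with a median log2 difference of -0.05 against 0.00 over all genes. Among all genes tested, 1.01% were called higher and 0.272% lower. Neurl1a, a Neuralized ubiquitin ligase that acts on Notch ligands, rose by 1.46 on the log2 scale (SE 0.17, 2.76-fold, edgeR adjusted p = 0.0327). It had 6.44, 6.37 and 8.02 CPM in vehicle and 12.8, 21.3 and 25.3 CPM in GSK126, and the groups did not overlap. Nov, which encodes the matricellular protein CCN3, fell by 1.27 on the log2 scale (SE 0.16, 0.416-fold, edgeR adjusted p = 0.0404). It had 247, 165 and 181 CPM in vehicle and 144, 60.0 and 61.6 CPM in GSK126, again without overlap. Both calls lay near the threshold of 0.05, and the alternative fits were followed by gene for the members only.

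Several further pathway genes passed 2-fold on 1 day without passing the fit. Fbxw7, the substrate receptor of a ubiquitin ligase that marks the Notch intracellular domain, was 2.75 times its vehicle level on day 10 (2.56 to 2.95). Mfap5, a microfibril protein, was at 0.407 of vehicle on day 10 (0.377 to 0.440). On day 6, Dlk2, a non-canonical ligand, was at 2.13 of vehicle (1.81 to 2.51) and Neurl1b, a second Neuralized ligase, at 0.412 (0.341 to 0.492), while Neurl1b stood above vehicle on day 3, at 1.41, and on day 10, at 1.50. The gamma-secretase and ADAM list (10 tested), the receptor glycosylation list (4), the nuclear complex (9) and the corepressors (12) each held 0 genes that passed. With 1.28% of all genes called, lists this short cannot show fewer calls than usual.

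The second comparison follows the same genes through culture time. By day 10 the receptors Notch1, Notch2 and Notch3, the ligand Jag1 and the target Hes1 had fallen from their day 3 levels. Averaged over vehicle and GSK126, Jag1 fell by 1.55 on the log2 scale (SE 0.11, edgeR adjusted p = 0.00680) and Notch1 by 1.53 (SE 0.21, adjusted p = 0.0135). Hes1 fell by 1.03 (SE 0.23, adjusted p = 0.0315), Notch2 by 0.63 (SE 0.13, adjusted p = 0.0237) and Notch3 by 0.58 (SE 0.11, adjusted p = 0.0225). Thus 5 of the 9 tested members were lower and 0 higher, while 26.6% of all genes were called, 14.1% as higher and 12.5% as lower. These 5 calls held under all 7 alternatives run.

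Within each treatment the same 5 genes lay lower on day 10 than on day 3. Jag1 was at 0.383 of its day 3 level in vehicle and at 0.304 in GSK126, and Notch1 at 0.435 and 0.282. Hes1 was at 0.427 and 0.577, Notch2 at 0.602 and 0.691, and Notch3 at 0.727 and 0.617. Their timing differed: in vehicle, Hes1 had reached 0.348 of its day 3 level by day 6 and Jag1 0.553, whereas Notch1 was still at 0.921 and Notch3 at 0.937. In GSK126, Notch1 was already at 0.501 on day 6. The mural list was lower on day 10 as well, with 5 of 7 tested genes called lower, and its part in these declines was not tested. Of the osteoblast list, 5 of 8 were higher on day 10.

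**Figure D4:**
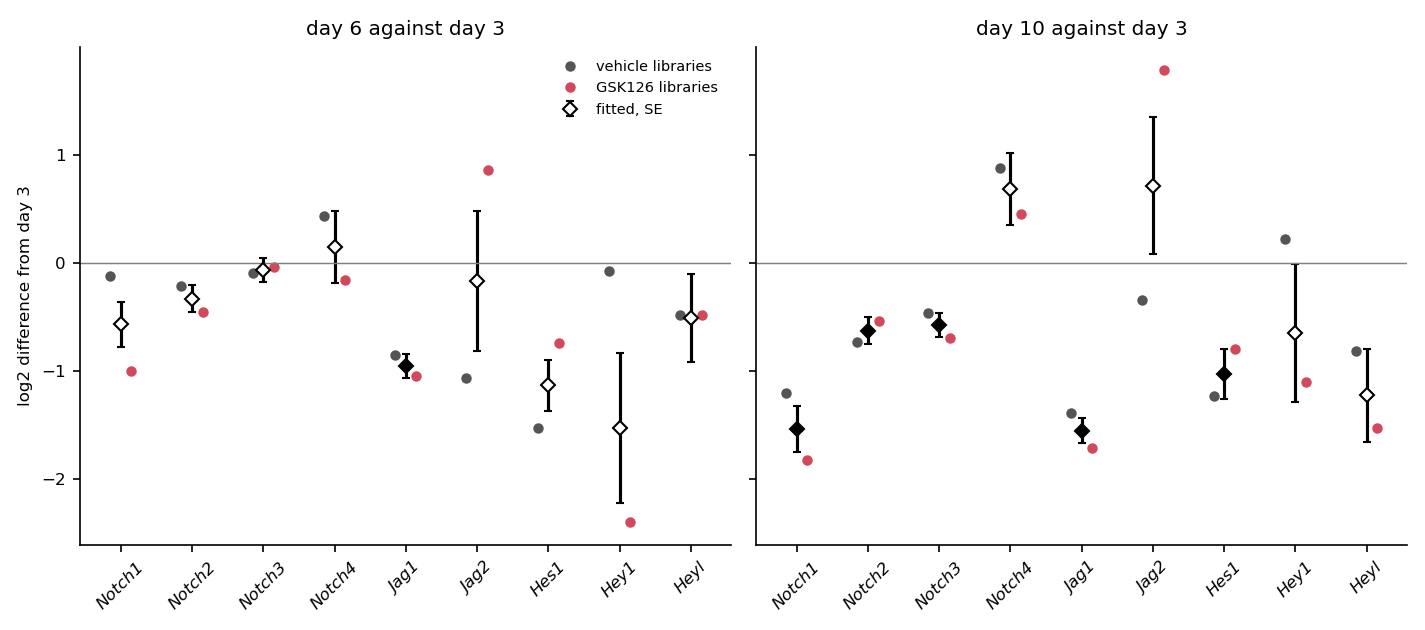
Log2 difference from day 3 (y axis) for the 9 members tested (x axis), on day 6 in the left panel and day 10 in the right. Grey and red points are the vehicle and GSK126 libraries, diamonds are the fit with its SE, and a filled diamond had an adjusted p below 0.05. On day 10 the filled diamonds are Notch1, Notch2, Notch3, Jag1 and Hes1, all below 0.

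On day 6, Jag1 was the only member to pass, lower by 0.95 than on day 3 (SE 0.11, edgeR adjusted p = 0.0478), where 0.753% of all genes were called, 0.516% as higher and 0.237% as lower. This call was lost without the day 10 libraries (adjusted p = 0.0559). Hes1 had a log2 difference of -1.13 on day 6 (edgeR adjusted p = 0.0975; DESeq2 0.00185). The rare members showed no call at either time. Notch4 had a log2 difference of 0.68 on day 10 (edgeR adjusted p = 0.174), Heyl of -1.22 (0.0863), Hey1 of -0.65 (0.478) and Jag2 of 0.72 (0.431). For Jag2 the treatments went opposite ways, to 0.787 of the day 3 level in vehicle and 3.46 in GSK126.

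Among the 56 other pathway genes, 5 rose and 11 fell between day 3 and day 10, with a median of -0.06 against -0.01 over all genes. Of all genes, 14.1% were called higher and 12.5% lower. Dtx4, a Deltex ubiquitin ligase, rose the most, from 11.7 to 54.5 CPM in vehicle and from 11.9 to 66.7 CPM in GSK126 (log2 difference 2.35, SE 0.11, edgeR adjusted p = 0.00281), and it had already passed on day 6. Mfap5 rose by 0.88 on the log2 scale, Hes6, a HES family member known to oppose Hes1, by 0.68, Psenen, a gamma-secretase subunit, by 0.49, and Dtx3 by 0.47. The genes that fell included 5 of the 9 of the nuclear complex and 4 of the 12 corepressors, and these lists were not tested against other genes. The acetyltransferase genes Crebbp and Ep300 fell by 0.85 and 0.60, and Maml2, a Mastermind coactivator, by 0.67. Of the corepressors, Tle4, of the Groucho family, fell by 1.18, and the secreted Nov fell by 0.85.

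The next comparison asks whether the GSK126 difference changed on day 10, after withdrawal. Day 10 is also the latest culture time, so withdrawal and culture time cannot be told apart. In a fit with 1 residual degree of freedom, 0 of the 14344 genes passed in edgeR, of which 1006 had an unadjusted p below 0.05. DESeq2 called 4 genes and limma-voom 0. The 9 members had edgeR adjusted p from 0.753 to 0.983. For Notch2, whose ratios lay on opposite sides of vehicle before and after withdrawal, the change was 0.32 on the log2 scale (SE 0.19, edgeR adjusted p = 0.753).

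The levels of the 3 abundant members with the widest range over the 6 libraries were set beside 11207 genes of at least 1 CPM in all libraries. Jag1 was most like Limk2, a LIM kinase, with a Pearson r of log2 CPM of 0.999, Thbs3, a thrombospondin, with 0.998, and Cited2, a CBP/p300-binding regulator, with 0.995. Notch1 was most like Wipf2, with 0.997, Prrc2b, with 0.997, and Zc3h3, with 0.996. Hes1 was most like Tbl3, with 0.990, Kri1, with 0.987, and Tpd52l1, with 0.984. As many as 260 genes had an r above 0.95 with Jag1 and 351 with Notch1, but 18 with Hes1. Pearson r compares the course of the levels and not the size of the change. Limk2 ranged from 37.2 to 65.3 CPM, against 13.6 to 62.1 CPM for Jag1. Tbl3 ranged from 52.2 to 63.7 CPM, against 2.05 to 6.37 CPM for Hes1. The r values describe 6 libraries that share the same culture times and treatments.

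The fourth comparison looks for H3K27me3 at these genes 24 hours after the first dose. None of the members with a mean above 2 RPKM except Notch3 had an H3K27me3 island over its span in either treatment. Islands lay at or near the rare genes Notch4, Hey1 and Hey2, and not within 5 kb of the rare genes Jag2 and Heyl. A link between islands and level was not tested. In vehicle, 3 of the 10 members had an island over the span (Notch3, Notch4 and Hey2), where 17.1% of all genes did. In GSK126, 3 members did (Notch4, Hey1 and Hey2), where 14.8% of all genes did. The share with an island differed by chromosome, from 9.91% of genes on chromosome 12 to 25.9% on chromosome 17 in vehicle, among the chromosomes that hold members. The 2 lists were called separately, with 34498 islands of median width 3400 bases in vehicle and 24947 of median width 5600 bases in GSK126, so island presence in 1 list and not the other was not tested as a difference.

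Notch4 had islands in both treatments. Vehicle had 3, of which the nearest to the start was chr17:34564601-34567600, with 43 ChIP and 40 input reads (the authors' fold over input 1.81, 95% counting interval 1.15 to 2.85). In GSK126 a single island, chr17:34564201-34569000, with 69 ChIP and 41 input reads (fold 2.80, 1.88 to 4.23), covered the gene start and began inside the promoter stretch printed above. The 2 fold intervals overlapped.

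Hey2 had a vehicle island at chr10:30829601-30834800, with 59 ChIP and 44 input reads (fold 2.25, 1.50 to 3.41), which covered the far end of the gene. In GSK126 the island was at chr10:30838401-30843200, with 61 ChIP and 56 input reads (fold 1.81, 1.24 to 2.65), and it covered the gene start and all of the printed promoter with its RBPJ core. The 2 islands did not overlap each other. Within 2 kb of the gene start, islands were found for Notch4 in vehicle and for Notch4 and Hey2 in GSK126, out of 7 members with a matched start, where 12.8% and 10.1% of 15717 genes had one. Hes1, Hey1 and Heyl had no matched start and were not part of this count.

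Hey1 was flanked in vehicle by islands at chr3:8657401-8661400 (62 ChIP and 34 input reads, fold 3.06, 1.99 to 4.80) and chr3:8668201-8671400 (39 and 25 reads, fold 2.62, 1.55 to 4.52), neither of which touched the gene. In GSK126, 1 island at chr3:8657201-8664200 (100 and 60 reads, fold 2.77, 1.99 to 3.88) reached 842 bases into the gene span. Notch3 had vehicle islands inside the gene at chr17:32137401-32140600 (29 and 29 reads, fold 1.68, 0.969 to 2.91) and chr17:32150601-32153200 (33 and 27 reads, fold 2.05, 1.20 to 3.55). Its nearest GSK126 island was 228349 bases away. Both vehicle islands of Notch3 had fewer ChIP reads than the vehicle median of 43. The fold interval of the first includes 1, and that of the second does not.

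**Figure D5:**
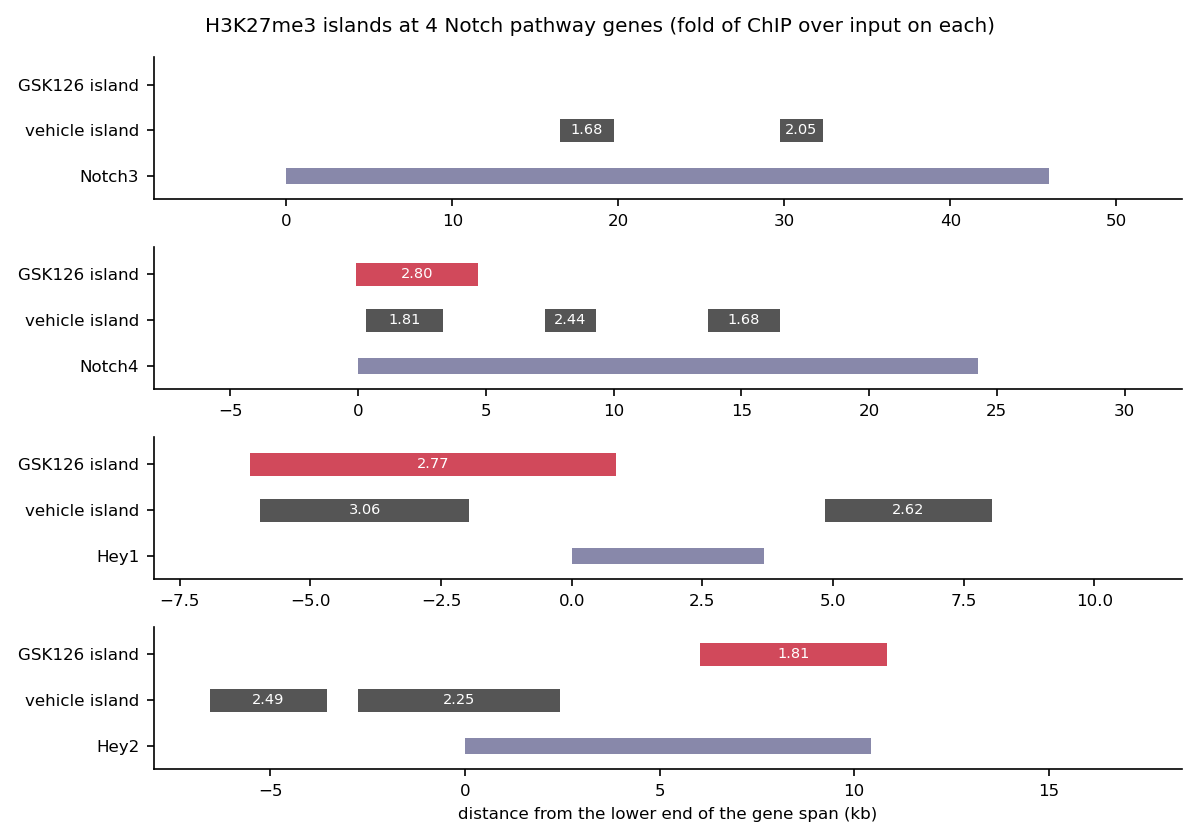
H3K27me3 islands of the vehicle list (grey) and the GSK126 list (red) at Notch3, Notch4, Hey1 and Hey2, drawn to scale against the gene span (blue-grey), with distance from the lower end of the span in kb on the x axis. The number on each island is the authors' fold of ChIP over input, from 1.68 to 3.06, and Notch3 has no GSK126 island.

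The other 6 members, Notch1, Notch2, Jag1, Jag2, Hes1 and Heyl, had no island within 5 kb in either treatment, which is the usual state, since 25.9% of all genes had one in vehicle and 22% in GSK126. The nearest island to Jag1 was 225851 bases away in vehicle and 228051 in GSK126, and the nearest to Hes1 15357 and 70205 bases. Heyl was the closest of the 6, with islands 5331 bases from its span in vehicle and 6331 in GSK126.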

How the data were processed

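RNA was sequenced in 6 libraries and H3K27me3 ChIP and input DNA in 4, each placed in its group by its label. The authors' deposited gene table holds raw counts per gene and RPKM values, the latter per the file headers. Per the submitters' processing notes, the build was mm10 and the tools included TopHat2 2.0.6 and HTSeq 0.5.3p9 beside BWA 0.5.9, CASAVA 1.9 and SICER 1.1. How genes were counted and how SICER was set is not given in the sources used. Every count was even, so 1 fragment was taken as 2 counts for intervals. The main tests used the counts as given, and counts divided by 2 were run as an alternative. The authors' island lists give for each island the reads of ChIP and input, their ratio (fold), a p-value and its adjusted value; 329 vehicle and 280 GSK126 islands had an adjusted p of 0.05 or more. Their columns were read by the layout SICER writes.

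For the counts, R 4.3.3 and edgeR 4.0.16 were used (quasi-likelihood test, TMM, filterByExpr, Benjamini-Hochberg adjusted p below 0.05, day and treatment as terms, 2 residual degrees of freedom, biological coefficient of variation 14.8%). The filter left 14344 genes, and Hey2 was not tested. The same steps were tested on simulated data. Alternatives used DESeq2 1.42.0 and limma 3.58.1. The SE was obtained from the log2 difference and its F statistic. Single days have no test: ratios are of TMM-scaled CPM with a prior count of 2, with exact binomial 95% intervals, and 2-fold counts need 1 CPM in a library. Intervals cover counting error only. The labels do not say whether libraries came from separate experiments, and p-values cover only the spread among these libraries, which may be technical. An island was assigned to a gene on 1 shared base.

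All members were named. Of the other pathway genes, those that passed for GSK126, the largest 6 each way that passed for day 10, and those 2-fold apart on a day were named; 1 gene that the rule takes is not reported here. Marker genes were named after their values were seen. The members and lists were chosen with earlier results of these data known.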

Additional observations from a re-analysis of the deposited data

Results flagged for a closer look

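In single pairs of libraries, Notch2 lay below vehicle with GSK126 before withdrawal and above vehicle after it. Withdrawal and culture time cannot be told apart here. Its level was below vehicle on day 3 (ratio 0.945, 95% counting interval 0.923 to 0.967) and on day 6 (0.801, 0.779 to 0.824), and above vehicle on day 10 (1.08, 1.05 to 1.12). In the fit with a term for day 10 the difference changed by 0.32 on the log2 scale (SE 0.19, edgeR adjusted p = 0.753), so the change did not pass. With library size alone as scaling the day 10 log2 ratio was 0.06.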

How the results depend on the processing

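The main analysis pairs the vehicle and GSK126 libraries by day, and without the day term 0 genes were called for GSK126. The labels carry no replicate numbers, so no further block was fitted. The count of genes called for GSK126 was 184 in the main analysis, 1323 with DESeq2, and 4 to 308 when 1 day was left out (308 without day 3, 19 without day 6, 4 without day 10). The day 6 count was 108, and 1713 with DESeq2, and 73 without day 10. The day 10 count was 3819, and 3364 without day 6. The change on day 10 had 0 calls, and 4 with DESeq2. With a minimum of 5 CPM the counts of genes 2-fold apart were 83, 449 and 397 on days 3, 6 and 10, against 196, 738 and 657. No vehicle island over a member had an adjusted p below 1e-10 (0 members against 3). With library size alone the median of all genes on day 10 was -0.11, against -0.01 in the main analysis, and the share of higher calls moved from 53.1% to 35.9%. That share moved from 68.5% to 50.7% on day 6, and the directions of the called members held. Jag1 passed for GSK126 in 5 of 10 alternatives (adjusted p 9.67e-06 to 0.973), and not with counts divided by 2 (0.0510). Signs turned for Notch2 with GSK126 without day 6 (0.014 against -0.10, with a range of -0.20 to 0.014 when 1 day was left out), for Jag2 on day 6 with limma-voom (0.10), and for Hes1 in the change on day 10 with library size alone (-0.011). The causes were not tested. Counting error limits Notch4, Jag2, Hey1, Hey2 and Heyl, which had at most 96 counts in a library.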
